A study of Mus musculus with 9 samples.

Results

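Among the genomic sites that Hoxa11 occupied in the mouse limb bud at E11.5 (E for embryonic day), one set carried Hoxa13 in both later lists, those of E11.5 and E12.5, and was missing from the earliest, that of E11.0. Sites were intervals merged from Hoxa11 peaks of replicates 1 and 2 that shared at least 1 bp, and 1023 were obtained. The set was chosen by peak overlap alone: 348 sites met a Hoxa13 peak in the E11.5 list and one in the E12.5 list by at least 1 bp, and none in the E11.0 list (34.0%, exact 95% binomial interval 31.1 to 37.0). This overlap is the selection itself, so 34.0% is also the background share over all Hoxa11 sites, and nothing is read from it. These 348 intervals are called later-only sites. Other sets served for comparison: 277 sites met by Hoxa13 in all 3 lists, called all-stage sites, and 167 met only at E11.5.

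All libraries came from wild-type ICR mice. Apart from 4 libraries of input DNA, they were immunoprecipitated with home-made antibodies to Hoxa13 or Hoxa11 and sequenced (ChIP-seq). The labels give 10 µg of antibody for Hoxa13 at E11.0 and E11.5, 8 µg for Hoxa11 and no amount for E12.5. Hoxa13 was taken from the autopod at E11.0 (11 pairs pooled), from whole limb buds of a litter at E11.5 and, for the last stage (E12.5), again from limb buds. Each stage is a single library. Hoxa11 was taken from E11.5 limb buds in 2 libraries. The E12.5 library followed an earlier published procedure, so between lists stage changes together with dissected tissue or protocol, and these cannot be told apart. There were 50890 Hoxa13 peaks in the E11.0 list, 143460 in the E11.5 list and 44699 in the E12.5 list. The E11.0 list was thus longer than the E12.5 list and shorter than the E11.5 list. The part of list length in the absence at E11.0 was not tested. The Hoxa11 lists held 2953 and 1647 peaks. Read depth per library was unknown, each Hoxa13 stage lacks a replicate, and peaks are not replicates, so the values below describe lists. Intervals cover counting error over sites only. Nothing in the labels says that the Hoxa11 replicates came from separate litters.

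Hoxa11 and Hoxa13 are homeodomain transcription factors of the posterior HoxA genes. Hoxa11 acts mainly in the zeugopod, the forearm and lower leg, and Hoxa13 in the autopod, the hand and foot. Their transcripts come to occupy separate domains as the limb grows, and posterior HOX proteins bind similar AT-rich sequences in vitro. In whole limb buds, binding of both proteins at one site does not show that it occurred in the same cells.

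The width of the later-only sites ran from 213 to 2815 bp, with a median of 454.5 bp (quartiles 343 and 605). In 334 of 348 (96.0%, 93.3 to 97.8) each Hoxa11 replicate contributed exactly 1 peak, against a background of 94.4% over all 1023 Hoxa11 sites, 98.2% of sites met only at E11.5 and 98.8% of sites without Hoxa13. The share was near the background, and lower at all-stage sites, with 240 of 277 (86.6%, 82.1 to 90.4). All-stage sites were wider, with a median of 545 bp and a maximum of 5606 bp. At 313 later-only sites (89.9%, 86.3 to 92.9) a single Hoxa13 peak at E11.5 and a single one at E12.5 joined the single Hoxa11 peaks, so 4 lists each held 1 peak there. The background was 83.8% of the 625 sites met at both later stages. Across later-only sites the widths of the Hoxa11 peaks in both replicates had a Spearman correlation of 0.50 (348 sites, a description, since both replicates share the site and its sequence).

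Median Hoxa11 enrichment at later-only sites lay below that at all-stage sites and above that at sites met only at E11.5 or by no Hoxa13 list. The measure is the fold enrichment over the caller's background that the authors deposited for Hoxa11 replicate 2, taken at the best-scored peak of each site. Its median over the 348 later-only sites was 4.36 (quartiles 3.72 and 5.46, range 2.20 to 15.3). All-stage sites had a median of 4.68 (3.73 and 6.24), sites met only at E11.5 had 4.13 (3.56 and 4.76), and the 165 sites without Hoxa13 had 3.60 (3.01 and 4.37). The median over all 1023 sites was 4.21. The distributions overlapped widely, and the upper quartile of sites without Hoxa13 was close to the later-only median. A fold of at least 6 was reached by 63 later-only sites (18.1%, 14.2 to 22.6), against a background of 15.9% over all Hoxa11 sites, 26.0% of all-stage sites and 7.78% of sites met only at E11.5. All Hoxa11 sites were then divided by fold into 4 groups of like size. Later-only sites made up 27.3% of the lowest group (22.0 to 33.2), 34.7% and 34.9% of the middle groups and 39.1% of the highest (33.0 to 45.3). All-stage sites rose more steeply, from 19.9% of the lowest group to 41.8% of the highest. Sites without Hoxa13 went the other way, from 28.5% to 5.86%.

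**Figure D1:**
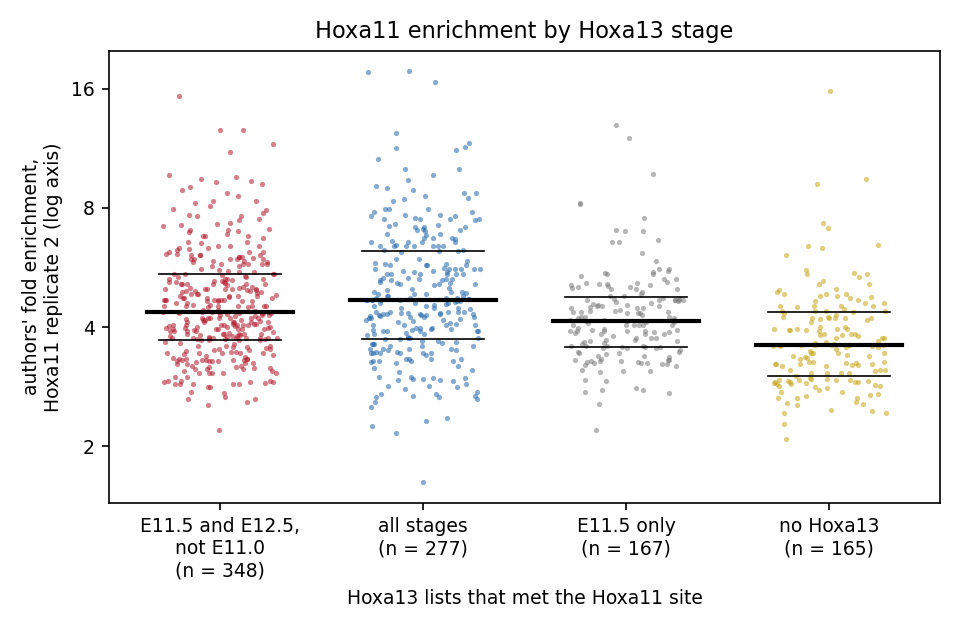
The authors' fold enrichment of Hoxa11 replicate 2 (log axis) for each Hoxa11 site, by the Hoxa13 lists that met the site; points are sites, thick bars medians and thin bars quartiles. The 348 later-only sites (median 4.36) sit between the all-stage sites (4.68) and the sites without Hoxa13 (3.60), with wide overlap.

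The 10 later-only sites with the highest score in replicate 2 had folds of 6.19 to 15.3. The first lay on chromosome 2 from 74976197 to 74976895 (699 bp; all positions are 1-based in the mouse build mm9) and had a fold of 11.6 and a −log10 q of 86.8. The second, on chromosome 3 from 80850494 to 80851753, had the highest fold of the set, 15.3. The third, on chromosome 5 from 147378811 to 147379703, reached 12.6, as did the fourth, on chromosome 16 from 62468496 to 62469145. At these 4 sites the Hoxa13 peaks were among the widest of their lists, with width percentiles of 98.8 to 99.7 at E11.5 and 98.2 to 99.6 at E12.5. These were strong Hoxa11 sites by the authors' score that also carried broad Hoxa13 peaks at both later stages.

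The fifth site by score, on chromosome 4 from 59145897 to 59146964 (fold 8.08), had a different make-up. Its E11.5 peak was at width percentile 99.8, but its E12.5 peak was at 19.5, shared 103 bp with the site and had its centre 347 bp from the Hoxa11 summit. The sixth, on chromosome 2 from 74218811 to 74219338, had a fold of 9.18, the eighth, on chromosome 18 from 56209119 to 56210554, had 11.1, and the tenth, on chromosome 12 from 57783808 to 57784192, had 9.66. The seventh and ninth lay close together on chromosome 11, from 87262019 to 87262531 (fold 6.77) and from 87256631 to 87257218 (fold 6.19). Their Hoxa13 peaks were of ordinary width, at percentiles 64.1 and 34.0 at E11.5 and 65.4 and 42.7 at E12.5. Among the 10 sites, the Hoxa11 summit fell inside an E11.5 peak at 10 and inside both an E11.5 and an E12.5 peak at 7. The nearest E11.0 peak was 2103 to 50024 bp away.

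The lowest scores belonged to sites on chromosome 7 from 90209237 to 90209513 (fold 2.20), chromosome 12 from 42136141 to 42136651 (2.66) and chromosome 16 from 41210098 to 41210384 (2.87). At the last of these, weak Hoxa11 went with wide Hoxa13 peaks, at width percentiles 98.2 and 97.8. Across the 348 later-only sites, Hoxa11 fold and Hoxa13 peak width had a Spearman correlation of 0.17 at E11.5 and 0.10 at E12.5, which is a weak relation and no finding. When the sites were divided into 3 groups of 116 by q-value, the median width percentile at E11.5 was 94.1, 93.9 and 91.4 from the best to the poorest group, and at E12.5 it was 86.6, 80.3 and 85.7.

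The position of Hoxa13 within the later-only sites was then set against the Hoxa11 summit. The selection asked only for 1 shared base, and the summit, the position of highest Hoxa11 enrichment in replicate 2, was not used. It did ask for overlap with these same Hoxa13 peaks, so high shares are favoured by the selection. The summit fell inside an E11.5 Hoxa13 peak at 337 of 348 sites (96.8%, 94.4 to 98.4) and inside an E12.5 peak at 296 (85.1%, 80.9 to 88.6). Over all 1023 Hoxa11 sites, of which only 625 had both later peaks, the backgrounds were 76.2% and 55.8%. The like-for-like comparison is with the all-stage sites, where the shares were 97.5% (94.9 to 99.0) and 90.6% (86.5 to 93.8), so the intervals overlapped at both stages. At sites met only at E11.5, the share for E11.5 was 92.8% (87.8 to 96.2). Both later peaks covered the summit at 292 later-only sites (83.9%). At 45 sites only the E11.5 peak did, at 4 only the E12.5 peak, and at 7 neither. E12.5 peaks are the narrower ones: at the later-only sites their median width was 239.5 bp, against 486.5 bp at E11.5.

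The centre of the nearest overlapping Hoxa13 peak lay a median of 61.0 bp from the Hoxa11 summit at E11.5 (quartiles 25.0 and 119.6) and 44.5 bp at E12.5 (20.5 and 103.1). All-stage sites had medians of 90.5 and 65.5 bp, and their intervals were wider. A distance of at most 50 bp was found at 149 later-only sites at E11.5 (42.8%, 37.6 to 48.2) and 185 at E12.5 (53.2%, 47.8 to 58.5). Among the 625 sites met at both later stages, which include the later-only sites, the backgrounds were 39.4% and 48.2%, both inside these intervals. At all-stage sites the shares were lower, at 35.0% (29.4 to 41.0) and 41.9% (36.0 to 47.9). The intervals of the later-only and all-stage shares overlapped at both stages, narrowly at E12.5. Signed along the chromosome, the median offsets were −2.75 bp at E11.5 and 4.0 bp at E12.5. Sites were not oriented by strand or motif, so these medians cannot show whether Hoxa13 kept to one side of the bound sequence. The E11.5 and E12.5 peaks also overlapped each other at all 348 later-only sites, against a background of 99.7% of the 625, so this was no mark of the later-only sites.

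**Figure D2:**
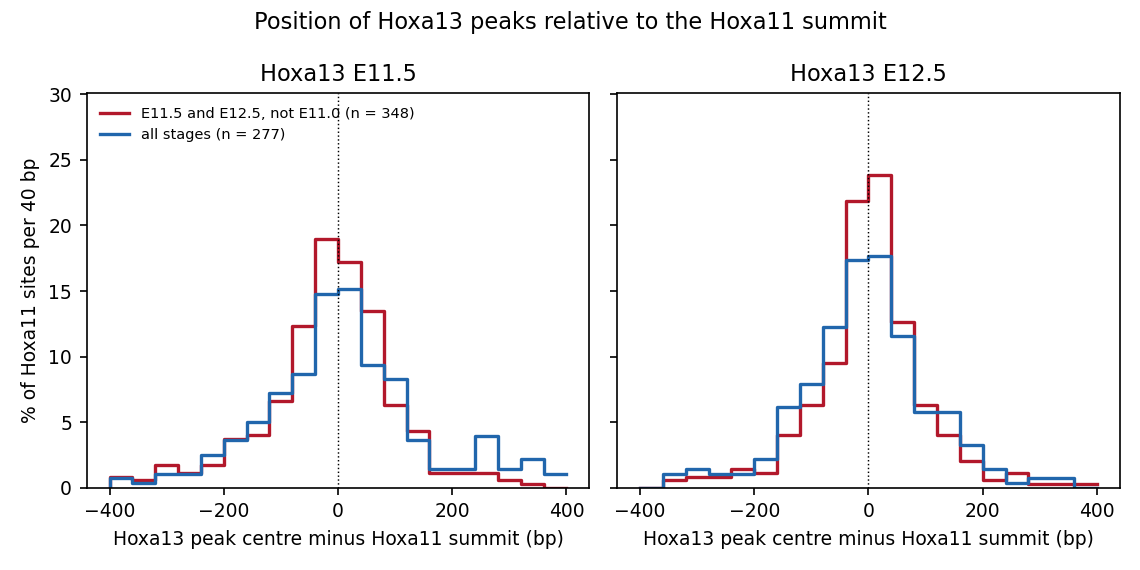
Distance of the nearest overlapping Hoxa13 peak's centre from the Hoxa11 summit, in bins of 40 bp, as a percentage of later-only (red) and all-stage (blue) sites at E11.5 and E12.5. Both sets peak at the summit; 9 later-only and 19 all-stage sites lie beyond 400 bp at E11.5, and 7 and 6 at E12.5.

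Hoxa13 peaks at Hoxa11 sites were wide for their lists in general, and those at later-only sites were less wide than those at all-stage sites. These lists hold no score, and width percentile within its own list was the only rank to be had. Where more than 1 peak met a site, the highest percentile was taken. That was the case at 3.74% of later-only and 8.30% of all-stage sites at E11.5, and at 6.61% and 18.8% at E12.5. At E11.5 the median percentile was 93.1 at later-only sites (quartiles 82.7 and 98.6), 98.8 at all-stage sites (95.9 and 99.8) and 77.0 at sites met only at E11.5 (53.9 and 91.4). At E12.5 it was 85.0 at later-only sites (61.9 and 96.6) and 97.2 at all-stage sites (88.3 and 99.5). Over all Hoxa11 sites met at the stage, the medians were 95.1 at E11.5 (810 sites) and 91.4 at E12.5 (662 sites), so the later-only medians were below them. The upper 10% of the E11.5 list supplied the peak at 215 later-only sites (61.8%), against a background of 73.9% of the 625, and the upper 10% of the E12.5 list at 144 (41.4%), against 54.7%. Later-only sites were themselves narrower than all-stage sites (medians of 454.5 and 545 bp). A wide peak also meets a site by 1 bp more readily. The parts of site width, number of peaks and the overlap rule in this order were not tested.

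Absence at E11.0 was next counted over Hoxa13 peaks with and without Hoxa11. Absence at E11.0 chose the later-only sites, so these shares are a description, carry no test and support nothing. Counted over Hoxa13 peaks, 361 of the 654 E11.5 peaks that were also met at E12.5 and held a Hoxa11 site were not met at E11.0 (55.2%, 51.3 to 59.1). The background over all such E11.5 peaks was 55.7%, and over those without Hoxa11 it was also 55.7% (55.2 to 56.3). The peaks with Hoxa11 were much wider, however, with a median percentile of 97.1 against 75.8, and wide peaks were more often met at E11.0. The bands of width used next were chosen after the data had been seen. Between percentiles 75 and 90, 76.9% of peaks with Hoxa11 (66.9 to 85.1) and 46.7% of those without (45.6 to 47.8) were not met at E11.0. Between 90 and 95 the shares were 69.9% (59.5 to 79.0) and 37.4% (35.7 to 39.1). Among the widest 1% they came together, at 35.0% (28.4 to 42.0) and 32.8% (29.7 to 36.0).

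In each of the 6 bands the share was higher with Hoxa11. Weighted to the widths of the peaks with Hoxa11, the share among other peaks was 41.1%, which is 14.1 points below 55.2%. Over the peaks of the E12.5 list, 56.8% of 722 peaks with Hoxa11 were not met at E11.0, against a background of 56.5%, while peaks without Hoxa11 at the same widths gave 40.1%, a difference of 16.7 points. In the E12.5 list the share was higher with Hoxa11 in all 6 bands, with intervals apart in 5. Both counts rest on the same Hoxa11 and E11.0 lists, and absence at E11.0 chose the later-only sites. The differences are therefore descriptions and support nothing. Outside windows dense in Hoxa13 peaks and unplaced sequence, defined below, the differences were 17.0 and 17.7 points. The E11.0 tissue was the autopod alone and the later tissue the limb bud, so stage and tissue cannot be told apart in this difference.

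**Figure D3:**
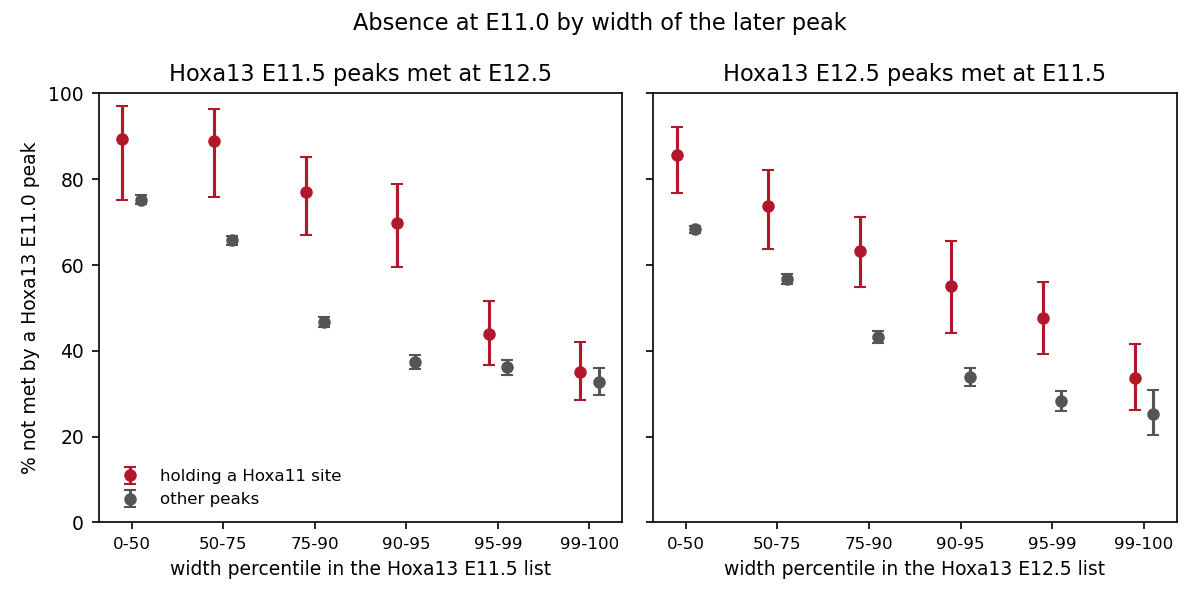
Percentage of Hoxa13 peaks not met at E11.0, by width percentile of the peak, for E11.5 peaks also met at E12.5 (left) and E12.5 peaks also met at E11.5 (right); bars are exact 95% binomial intervals over peaks. Peaks holding a Hoxa11 site (red) lie above other peaks (grey) in all 6 bands of each list, and the distance is small among the widest 1%. The intervals are apart in 3 bands on the left and in 5 on the right.

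The gap from a later-only site to the nearest E11.0 peak had a median of 17964 bp (quartiles 5463 and 45783, highest 676280). Sites met only at E11.5 had a like median of 17657 bp, and sites without Hoxa13 were farther out, at 33837 bp. An E11.0 peak lay within 500 bp of 20 later-only sites (5.75%) and within 1 kb of 34 (9.77%, 6.86 to 13.4). For all 710 Hoxa11 sites that were not met at E11.0, the background within 1 kb was 7.89%, inside that interval. Within 10 kb the count was 128 (36.8%, 31.7 to 42.1), against a background of 32.4%. At 81 sites (23.3%) no E11.0 peak lay within 50 kb, against a background of 26.1% of the 710. Of the 34 sites with an E11.0 peak within 1 kb, 14 lay in dense windows and 3 on unplaced sequence.

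**Figure D4:**
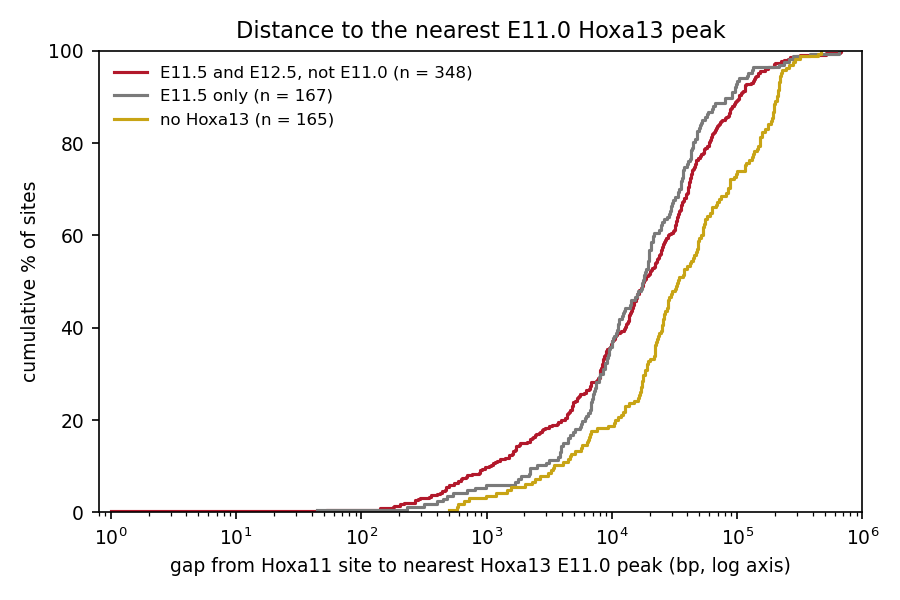
Cumulative percentage of Hoxa11 sites by the gap to the nearest Hoxa13 E11.0 peak (log axis) for later-only sites (red), sites met only at E11.5 (grey) and sites without Hoxa13 (yellow). The red and grey curves run together near their medians of 17964 and 17657 bp, and the yellow curve lies to the right, at 33837 bp.

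A few sites stood at the edge of the selection. The later-only site nearest to an E11.0 peak, on chromosome 3 from 6887332 to 6887771, was 1 bp from it, and the next, on chromosome 17 from 74251592 to 74251906, was 52 bp away. The others of the 5 nearest lay on chromosome X from 122486376 to 122487808 (141 bp), chromosome 18 from 49353971 to 49354477 (179 bp) and 4_random from 98384 to 99167 (183 bp). Just outside, the all-stage site with the smallest E11.0 overlap, on chromosome 12 from 74622635 to 74623416, shared 17 bp with its E11.0 peak. It was followed by chromosome 14 from 81372329 to 81372904 (53 bp), chromosome X from 121047054 to 121050115 (56 bp), chromosome 1 from 152711635 to 152711976 (72 bp) and chromosome 12 from 19308755 to 19309550 (102 bp). In all 5 the Hoxa11 summit was outside the E11.0 peak.

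For the later peaks the edge was less thin. The smallest overlap was 83 bp, with an E12.5 peak on chromosome 11 from 25632503 to 25632990. Next came chromosome 7 from 59209726 to 59210057 (101 bp), the chromosome 4 site with 103 bp already described, chromosome 17 from 75607409 to 75607900 (106 bp) and chromosome 18 from 84520315 to 84520770 (110 bp). In the last case the overlap was the whole width of the E12.5 peak, one of the narrowest of its list at percentile 4.32. Overlap with E11.5 peaks was at least 173 bp at every later-only site.

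Along the genome the later-only sites were scattered. They occupied 271 windows of 1 Mb, of which 229 held 1 site, 26 held 2 and 16 held 3 or more. Another later-only site lay within 100 kb of 60 of them (17.2%, 13.4 to 21.6). Another site of the same set lay that near to 26.4% of all-stage sites and 10.8% of sites met only at E11.5. It did so for 16.4% of sites without Hoxa13, against a background of 19.5% over all Hoxa11 sites. The sets differ in size, which bears on these shares. Any Hoxa11 site lay within that distance of 109 (31.3%, 26.5 to 36.5), against a background of 34.1% over all Hoxa11 sites. Chromosome 1 held 37 later-only sites, chromosome 3 held 33 and chromosome 2 held 28. As shares of the Hoxa11 sites on each chromosome these were 42.5% (32.0 to 53.6), 38.4% (28.1 to 49.5) and 35.9% (25.3 to 47.6), all with intervals that include the 34.0% of the whole genome.

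The 5 windows with most later-only sites began with 3 neighbours on chromosome X. The windows starting at 121000001, 122000001 and 120000001 held 10, 6 and 5, which is 21 of the 22 on that chromosome, next to 32 all-stage sites. All 3 were dense in Hoxa13 peaks, meaning that in at least one Hoxa13 list their count exceeded the upper quartile over windows by more than 3 interquartile ranges. In the first of them the E11.0 list alone held 132 peaks, against a bound of 77. Dense windows held 22 later-only sites in all (6.32%, 4.00 to 9.42), against a background of 8.31% of all Hoxa11 sites and 13.7% of all-stage sites. Whether repeated sequence gives rise to the peaks there was not tested. The other windows, on chromosome 14 from 52000001 and chromosome 3 from 86000001, held 5 each and were not dense.

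A window on chromosome 11, from 87000001 to 88000000, is described because the seventh and ninth sites by score lie in it; it was chosen after its values were seen. It held 8 Hoxa11 sites, of which 4 were later-only, 2 were met only at E11.5, 1 only at E12.5 and 1 by no Hoxa13 peak. From 87236235 to 87285246 it held 6 of them, with folds of 4.86 to 6.77. At the 5 of these with Hoxa13, the E11.5 peaks had width percentiles of 31.8 to 64.1.

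Of the Hox gene clusters, HoxA codes for these proteins, and HoxD is controlled in the limb from both flanks. The telomeric flank of HoxD drives its early phase in the future forearm, the centromeric flank drives the late phase in the digits, and HOX13 proteins take part in the change from one to the other. No annotation was attached to positions, and the clusters were placed in windows of 1 Mb from general knowledge of the genome alone, with no annotation to check them. The HoxD window, on chromosome 2 from 74000001 to 75000000, held 4 Hoxa11 sites, and 3 of them were later-only. They were the first and sixth sites by score, named above, and one from 74535107 to 74535634 with a fold of 6.87. The remaining one, from 74536748 to 74537288 (fold 3.99), was met only at E11.5.

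At the later-only sites of the HoxD window, the E12.5 peak centre was 25.5 bp from it at the first site, 5.0 bp at the sixth and 9.5 bp at the one from 74535107, and the E11.5 centre was 54.5, 85.5 and 53.0 bp away. Although none of them met an E11.0 peak, the gaps were short, at 2234, 2103 and 6266 bp, and the window held 34 Hoxa13 peaks at E11.0, against 129 at E11.5 and 44 at E12.5. The E11.0 list was therefore not empty in this window.

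The windows of the other clusters held no later-only site. In the HoxA window on chromosome 6, 4 of 7 Hoxa11 sites were met at all stages, among them the one from 52176071 to 52176864 (fold 5.80), 1 only at E11.5 and 2 not at all. The HoxC window on chromosome 15 had 1 all-stage site and 2 met only at E11.5, and the HoxB window on chromosome 11 had 1 of each. These are 16 sites in all, too few for a comparison of clusters, and the contrast between HoxD (3 of 4 later-only) and HoxA (0 of 7) is given as counts only.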

How the data were processed

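The submitters' processing notes name the build mm9 and the tools MACS2 2.1.0, Bowtie2 2.2.2 and CASAVA 1.4; roles, thresholds and use of the input are not given in the sources used here. The 4 input libraries were not analysed here. By its title, 1 input serves Hoxa13 at E11.5 and Hoxa11 replicate 1. The authors deposited 1 peak list per library. Only the list of Hoxa11 replicate 2 carries values per peak: the deposited score (the whole part of 10 times −log10 q in 100% of peaks), the deposited fold enrichment (a ratio to the background estimated by the caller), −log10 p and q, and the summit. These are the authors' own and were used to describe and rank sites within that list.

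Overlaps (at least 1 bp), distances and ranks were computed with Python 3.11.15, pandas 2.3.3 and scipy 1.17.1, tested on simulated lists and checked against bedtools 2.31.1. Intervals are exact Clopper-Pearson at 95%. No test was run over sites, which are not replicates. The members, lists and rules were chosen with earlier results of these data known. Named sites are the 10 highest and 3 lowest by score, the 5 nearest each edge of the selection (E11.0 gap, later overlap, E11.0 overlap just outside), the 5 richest windows and those of the Hox clusters. Motifs, sequences and nearest genes were not analysed here, because the reference used here is of another build, GRCm38, and positions were not converted.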

Additional observations from a re-analysis of the deposited data

How the results depend on the processing

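Of 117 values recomputed under other settings, 94 stayed within the interval of the reported value (or within 1.5 times for counts) and 23 moved. A change of sign was possible only for the difference in absence at E11.0 at like widths. That difference kept its sign in every setting in which it was recomputed. All settings drew on the same single E11.0 library and the same Hoxa11 libraries, and absence at E11.0 chose the later-only sites. The constant sign therefore supports nothing. Requiring 50% reciprocal overlap at the later stages cut the later-only sites from 348 to 174, the windows with 3 or more from 16 to 4 and the share with another within 100 kb from 17.2% to 8.62%. It raised the share with the summit in a Hoxa13 peak to 98.9% at E11.5 and 97.7% at E12.5, set the width percentiles to 91.8 and 93.4, and raised the difference in absence at E11.0 at like widths from 14.1 to 20.8 points. That rule needs partners of like width. Counting E11.0 peaks within 500 or 1000 bp as present left 328 and 314 sites, with 13.4% and 11.1% having another within 100 kb, and at 1000 bp the share of Hoxa11-holding E11.5 peaks without E11.0 fell to 49.7%. With the widest 44699 peaks of each Hoxa13 list, 305 sites remained, the width percentiles were 84.9 and 88.0 and the share within 100 kb was 12.8%. Replicate 2 peaks with −log10 q of at least 5 gave a median fold of 4.68. Another later-only site lay within 10 kb of 10.1% and within 1 Mb of 48.3%. Over all Hoxa11 sites, another site of the same set lay within these distances of 12.2% and 40.6%.

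With a single Hoxa11 replicate in place of both, the number of sites ranged from 448 (replicate 2 alone) to 758 (replicate 1 alone), so the number depends on asking for both. The windows with 3 or more then numbered 20 to 50, the share within 100 kb was 23.6% to 23.7%, the E12.5 width percentile was 81.1 to 85.6, and the median fold in replicate 2 alone was 4.11. No paired analysis was possible because only Hoxa11 has replicates and no comparison between groups was tested. The planned motif alternatives were not run, as no genome of the build was used. The lists give no read depth, so a site missing at E11.0 is one not listed, not one shown to be unbound.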
